A study of Mus musculus with 14 samples.

Results

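The CSF1 and IL-7 axes were followed through 8 genes, 3 ligands (Csf1, Il34 and Il7) and 5 receptor chains (Csf1r, Csf2ra, Csf2rb, Il7r and Il2rg), among the 23282 genes of the count table. The members were chosen by gene symbol, with the diet contrast of these libraries already known, so their levels and diet differences are given as a description. The samples were epididymal white adipose tissue (eWAT) of wild type male C57BL/6J mice, purchased at 4 weeks of age and kept for 20 weeks on a normal diet (control) or a Western diet (WD), which is rich in fat and contains cholesterol. Batch 1 held 4 control libraries (1 to 4) and 5 WD libraries (1 to 5), and batch 2 held 5 control libraries (5 to 9). No WD library belonged to batch 2, so diet and batch cannot be told apart when WD is set against the batch 2 controls. RNA came from whole fat pads, in which fewer cells of a type and less RNA per cell cannot be told apart.

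CSF1R is the receptor tyrosine kinase on which most tissue macrophages depend for survival, and it binds CSF1 and IL-34. The GM-CSF receptor joins a specific alpha chain, CSF2RA, to the common beta chain CSF2RB, which also serves the receptors for IL-3 and IL-5. IL-7 binds IL7R paired with the common gamma chain IL2RG, and IL7R paired with CRLF2 forms the receptor for TSLP. IL7R is best known from developing and resting lymphocytes, and macrophages accumulate in the visceral fat of obese mice.

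The upstream bases of a receptor and a ligand are shown as an example of each kind of gene. RefSeq promoters (GRCm38.p6) were matched for 4 of the 8 genes, Csf1, Csf2ra, Il7r and Il2rg. The 250 bases before the start are printed 5′ to 3′ on the gene's strand for Csf2ra (chr19:61228419-61228668, minus strand) and Csf1 (chr3:107760470-107760719, minus strand). Capitals mark GAGGAA, a core recognised by the myeloid factor PU.1, the product of Spi1, which was searched on both strands.

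Csf2ra: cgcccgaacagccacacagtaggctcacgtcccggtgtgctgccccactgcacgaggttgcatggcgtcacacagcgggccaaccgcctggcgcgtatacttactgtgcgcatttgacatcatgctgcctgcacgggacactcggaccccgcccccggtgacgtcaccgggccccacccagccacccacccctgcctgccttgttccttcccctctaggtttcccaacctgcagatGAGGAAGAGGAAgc

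Csf1: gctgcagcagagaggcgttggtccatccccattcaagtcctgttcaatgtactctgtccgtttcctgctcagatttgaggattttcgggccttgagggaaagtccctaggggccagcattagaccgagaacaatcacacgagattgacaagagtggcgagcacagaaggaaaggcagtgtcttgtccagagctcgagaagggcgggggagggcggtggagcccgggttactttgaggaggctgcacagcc

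GAGGAA occurred 2 times in the Csf2ra window, 14 to 9 and 8 to 3 bases before the start, and the Csf1, Il7r and Il2rg windows did not hold these letters. Of 32851 promoters of the same length, 23.3% held it. The last 11 bases of the Csf2ra window lie in a Csf2ra exon of the GENCODE annotation. The bases of Il7r are not shown, because 86 of them lie in its GENCODE exons. The core bound by RUNX factors, TGTGGT, was found in the Il2rg window alone, and 14.05% of all promoters held it. The AP-1 letters TGANTCA were in none of the 4 windows, against 6.75% of all promoters.

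Total counts ranged from 10278970 to 13712254 per library, and 3 counts, taken as the floor, corresponded to 0.219 to 0.292 CPM, the usual scale on which counts are divided by the library total. Levels below are CPM with TMM-adjusted totals over the 14 libraries, and SDs are between mice. Such 3′ tag counts do not grow with transcript length. Control 1 carried RNA of the epididymis, with the 10 markers of that organ summing to 169733 CPM against at most 51.4 in any other library. Control 4 had the fewest genes with a count, 7999 against 10903 to 13780 elsewhere. The adipocyte markers Adipoq, Lep, Plin1, Cidec and Fabp4 were counted in all 14 libraries and summed to 20828 to 45112 CPM outside control 1 and to 4500 there. Member calls that rest on the batch 1 controls, and Csf1r against its ligands, are therefore also given without controls 1 and 4. This choice was made after the values were seen.

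The ligands of CSF1R overlapped between the diets in level. Csf1, macrophage colony-stimulating factor (mm10, chr3:107741048-107760469), measured 14.7, 10.3, 24.8 and 27.9 CPM in batch 1 controls 1 to 4. In WD libraries 1 to 5 it measured 16.1, 19.7, 17.3, 10.3 and 14.6 CPM. In batch 2 controls 5 to 9 it measured 13.1, 24.8, 12.7, 15.3 and 13.7 CPM. The 3 groups overlapped throughout, and the highest Csf1 level was that of control 4. The log2 fold change of WD was -0.32 ± 0.62 (SE) against the batch 1 controls, with a 95% interval of -1.66 to 1.01. Set against the batch 2 controls it was -0.04 ± 0.36, with an interval of -0.81 to 0.73.

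Il34, the second ligand of CSF1R (chr8:110741829-110805924), measured 60.1, 29.9, 21.6 and 23.4 CPM in the batch 1 controls. In the WD libraries it measured 39.0, 75.3, 28.4, 26.7 and 42.5 CPM, and in the batch 2 controls 57.3, 18.3, 33.2, 61.4 and 42.9 CPM. The groups overlapped here too, with WD 2 the highest library and control 6 the lowest. The log2 fold change of WD was 0.32 ± 0.48 (SE) against the batch 1 controls and -0.02 ± 0.35 against the batch 2 controls. GENCODE places 2 antisense genes over Il34, and whether counting used strand is not given in the sources used here. Il34 exceeded Csf1 in 11 of the 14 libraries, all but controls 3, 4 and 6, and the ratio ran from 0.738 to 4.39.

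Il7 (chr3:7572077-7613427), made mainly by stromal and epithelial cells, was near the floor. Its counts were 0, 0, 28 and 0 in the batch 1 controls, 65, 2, 0, 0 and 22 in the WD libraries, and 106, 11, 0, 32 and 2 in the batch 2 controls. It was at 0 in 6 of the 14 libraries, and those with a level above the floor were spread over the 3 groups. Its mean was 1.33 ± 1.98 CPM (SD, n = 5) in WD, 0.583 ± 1.17 (n = 4) in the batch 1 controls and 2.24 ± 3.09 (n = 5) in the batch 2 controls. Il7 did not pass the low-count filter in the batch 1 comparison. A difference between diets was not detected, and the interval against all controls was wide, from -3.89 to 3.52 on the log2 scale. An antisense gene, Gm16685, overlaps Il7.

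**Figure D1:**
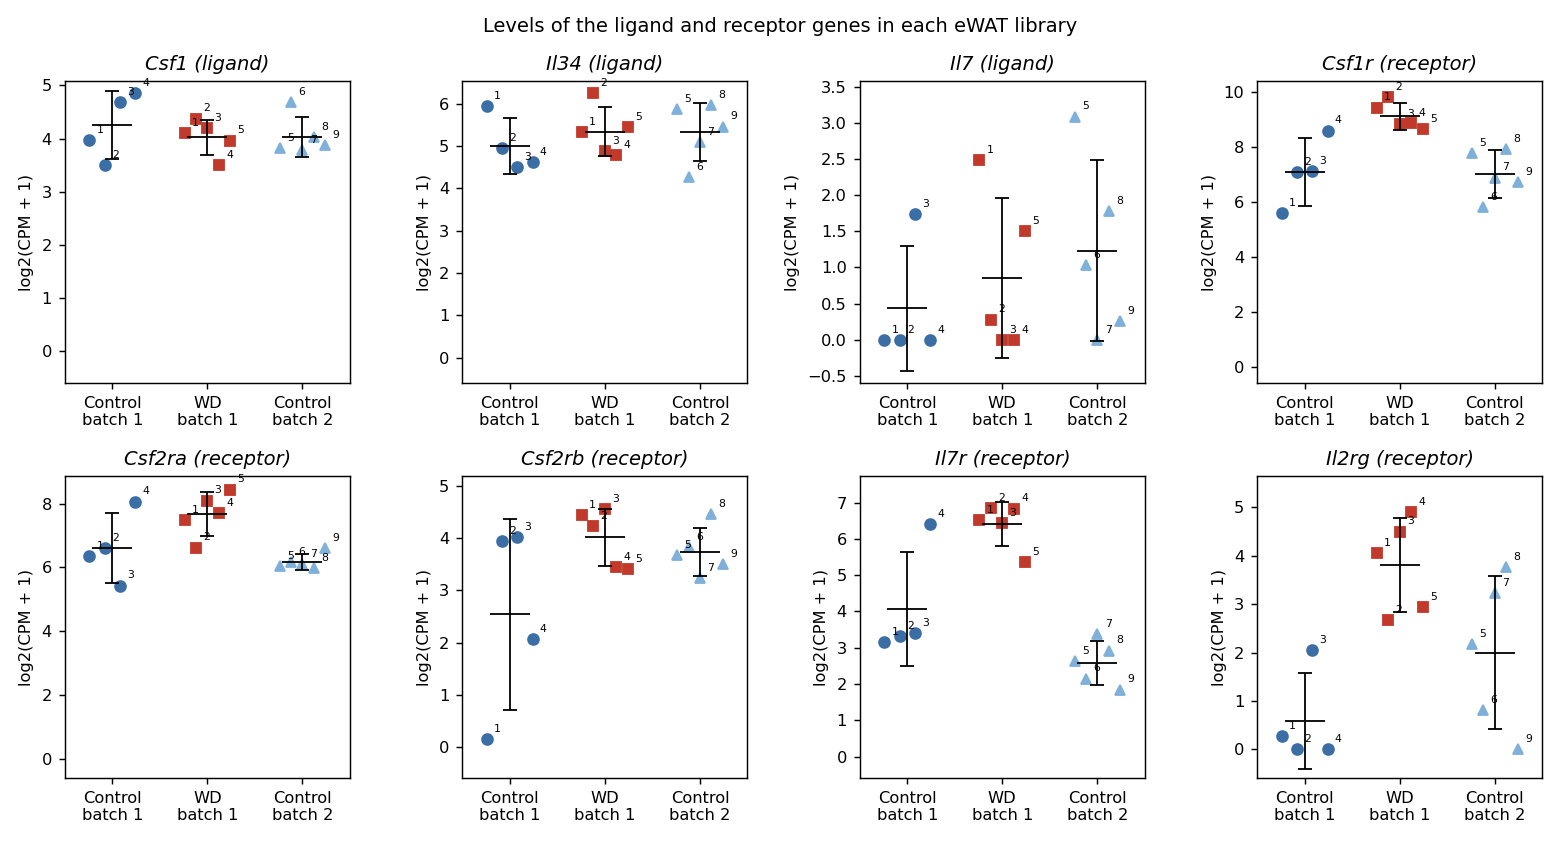
Levels of the 8 genes as log2(CPM + 1) on the vertical axis for the 4 batch 1 controls, 5 WD libraries and 5 batch 2 controls, with replicate numbers beside the points and black bars for the group mean and SD. Csf1 and Il34 overlap between the groups, all 5 WD libraries lie above all 9 controls for Csf1r, and control 4 lies among the WD libraries for Il7r.

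Csf1r (chromosome 18), the receptor of CSF1 and IL-34, measured 47.1, 136, 139 and 389 CPM in batch 1 controls 1 to 4, with control 4 the highest. In the WD libraries it measured 697, 904, 458, 466 and 405 CPM. In the batch 2 controls it measured 220, 55.2, 118, 246 and 106 CPM. Every WD library was above every control, and the nearest pair were WD 5 at 405 CPM and control 4 at 389 CPM. The mean was 586 ± 210 CPM (SD, n = 5) in WD, 178 ± 147 (n = 4) in the batch 1 controls and 149 ± 80.7 (n = 5) in the batch 2 controls. The log2 fold change of WD was 1.72 ± 0.52 (SE) against the batch 1 controls, 1.84 ± 0.40 against all controls and 1.96 ± 0.35 against the batch 2 controls. The control batches differed by -0.26 ± 0.55, batch 2 against batch 1. The Hmgxb3 gene overlaps Csf1r on the opposite strand.

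Il7r (chr15:9506159-9529876) had the largest difference from the batch 2 controls among the 8 genes. It measured 90.0, 114, 85.9, 113 and 40.3 CPM in WD libraries 1 to 5. In the batch 2 controls it measured 5.23, 3.43, 9.36, 6.57 and 2.60 CPM, so the lowest WD library was above the highest of these controls. In the batch 1 controls it measured 7.88, 8.93, 9.59 and 84.6 CPM. Control 4 was thus at the level of the WD libraries and above WD 5, and the 2 diets overlapped within batch 1 through this library alone. The log2 fold change of WD was 4.01 ± 0.39 (SE) against the batch 2 controls and 1.67 ± 0.71 against the batch 1 controls. Without control 4 the latter was 3.31. The control batches themselves differed by -2.35 ± 0.86, batch 2 against batch 1, and by -0.68 without control 4.

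Il2rg (chrX:101264385-101268255), the chain that IL7R shares with the receptors for IL-2, IL-4, IL-9, IL-15 and IL-21, was lower in level. Its counts were 2, 0, 38 and 0 in the batch 1 controls, 221, 50, 292, 365 and 80 in the WD libraries, and 50, 8, 112, 166 and 0 in the batch 2 controls. All 5 WD libraries were above the 4 batch 1 controls in CPM, whereas 3 of 5 were above all the batch 2 controls. The log2 fold change of WD was 4.19 ± 1.67 (SE) against the batch 1 controls and 1.61 ± 0.91 against the batch 2 controls. The former was 3.76 to 7.66 with 1 library left out, the highest of these without control 3, when the remaining batch 1 controls held 2, 0 and 0 counts. Gm20489, which overlaps Il2rg on the same strand, holds 26.9% of the 75-base stretches in the last 500 bases of the Il2rg transcripts. Reads of the 2 genes could therefore be shared.

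Csf2ra (chr19:61224402-61228418), the alpha chain of the GM-CSF receptor, measured 179, 97.2, 271, 208 and 345 CPM in the WD libraries. In the batch 2 controls it measured 64.6, 70.5, 67.7, 62.0 and 95.6 CPM, a narrow range below every WD library. In the batch 1 controls it measured 81.3, 96.8, 42.1 and 266 CPM, and control 4 was again at the level of the WD libraries. WD 2 was level with control 2. The log2 fold change of WD was 1.60 ± 0.28 (SE) against the batch 2 controls and 0.85 ± 0.51 against the batch 1 controls, where the interval ran from -0.24 to 1.95. The latter was 1.56 without control 4 and 0.54 without control 3, with no call in either case.

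Csf2rb (chr15:78325990-78351001), the beta chain of the same receptor, did not follow Csf2ra. It measured 0.108, 14.3, 15.2 and 3.19 CPM in the batch 1 controls, the first of these from 1 count. In the WD libraries it measured 20.8, 17.8, 22.5, 9.89 and 9.67 CPM, and in the batch 2 controls 11.8, 13.2, 8.38, 21.1 and 10.4 CPM. The groups overlapped, and the log2 fold change of WD was 0.30 ± 0.41 (SE) against the batch 2 controls. Against the batch 1 controls it was 0.97 ± 1.06, where controls 1 and 4 were the lowest of all libraries. Controls 2 and 3, at 14.3 and 15.2 CPM, lay within the WD range. Across the alternatives run, this value was 0.13 to 1.80. Csf2rb2, its near copy, holds 5.38% of the 75-base stretches at the ends of the Csf2rb transcripts, so some reads could be counted at both genes.

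**Figure D2:**
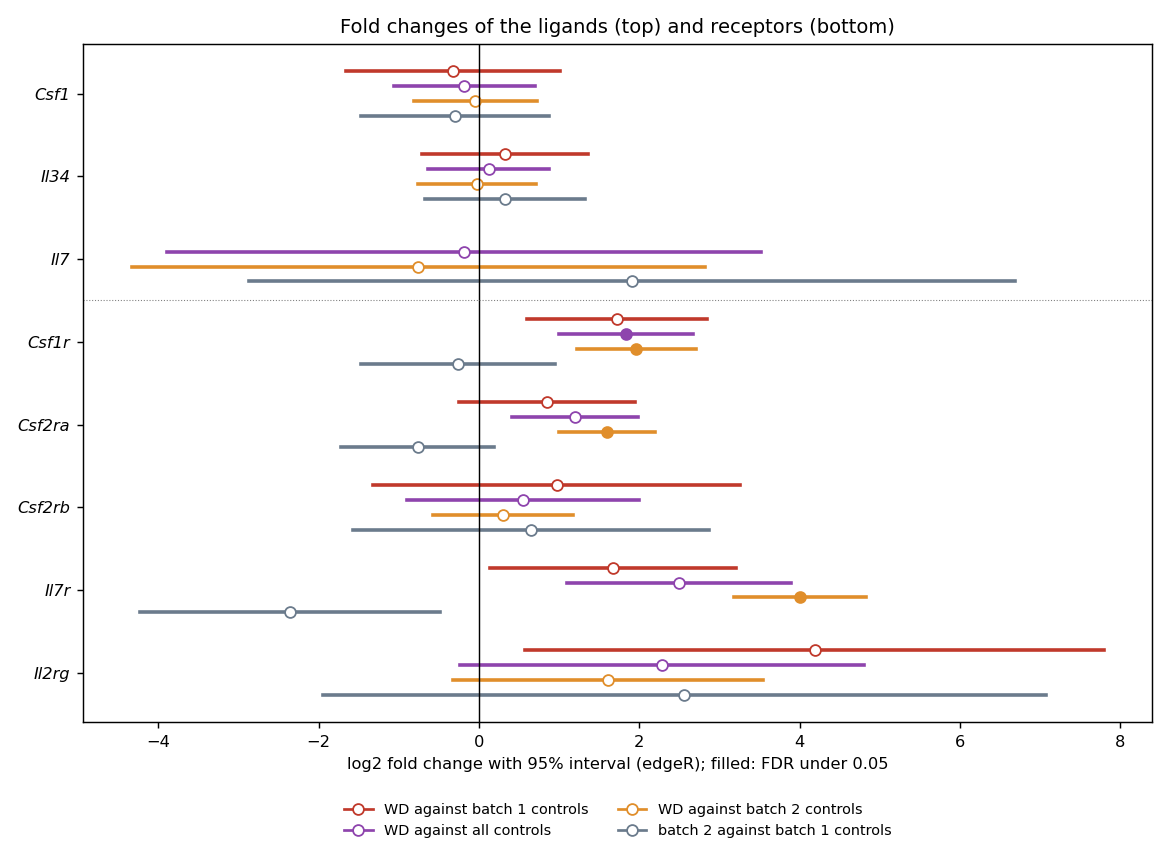
The log2 fold changes of the 8 genes on the horizontal axis with 95% intervals from edgeR, 1 colour per comparison, with filled points for an FDR under 0.05. The intervals of Csf1 and Il34 span 0 in all 4 comparisons, the 5 receptors have positive values in the 3 diet comparisons, and Il7 has no value against the batch 1 controls.

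A gene was called when its FDR, the Benjamini-Hochberg adjusted p of edgeR's quasi-likelihood test over all genes tested, was under 0.05. Against the batch 1 controls, the comparison within 1 batch, 0 of the 7 members tested were called, and of 12157 genes 0 were called (0%). Of these 12157 genes, 628 had an unadjusted p under 0.05, Csf1r, Il7r and Il2rg among them, and chance alone gives about 1 in 20. DESeq2 called 238 of 13168 genes and 0 members. Csf1r and Il2rg were above the controls in every WD library, a pattern found in 3.03% of the genes tested. Without controls 1 and 4, 2 members were called in this comparison, Csf1r (log2 fold change 2.09) and Il7r (3.26), beside 0.796% of the 13576 genes tested. Without control 4 alone the call was Il7r, beside 0.372% of 12901 genes.

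Against all 9 controls, 1 of 8 members, Csf1r, was called, beside 0.530% of the 12653 genes tested. Csf1r was also the only member above the controls in every WD library, which held for 1.13% of the genes. This call did not stand in a fit with batch as a term, which called 0 members and 1 of 12653 genes (0.00790%) and gave Csf1r a log2 fold change of 1.69. It was also lost when any library other than control 1 or control 4 was left out, while without control 4 there were 3 calls, Csf1r, Csf2ra and Il7r, beside 2.29% of the 12605 genes tested. With the batch 2 controls alone, 3 of 8 members, Csf1r, Csf2ra and Il7r, were called, beside 6.40% of the 12070 genes tested, and the same 3 genes lay wholly above those controls, as did 4.99% of all genes. Between the control batches 0 of 8 members were called, and 0 of 12106 genes (0%), of which 895 had an unadjusted p under 0.05. DESeq2 called 226 of 12600 genes there. The WD libraries are the same in the 3 diet comparisons, so these counts are not independent of each other.

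The median log2 fold change of the 5 receptors was 1.67 against the batch 1 controls, 1.84 against all controls and 1.61 against the batch 2 controls. That of the ligands tested was 0.00047, -0.18 and -0.04. Over all genes tested the median was 0.03, -0.04 and -0.0034. All 5 receptors had a positive log2 fold change in each of these comparisons, whether or not they were called.

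The balance of Csf1r and its ligands was followed in each library as the CPM of Csf1r per CPM of Csf1 and Il34 together. The ratio was 12.6, 9.51, 10.01, 12.6 and 7.10 in WD libraries 1 to 5. It was 0.630, 3.38, 2.99 and 7.56 in the batch 1 controls and 3.13, 1.28, 2.57, 3.20 and 1.86 in the batch 2 controls. Control 4 was just above WD 5, and all other controls were below every WD library. On the log2 scale, with 1 CPM added to each sum, the mean was 3.32 ± 0.34 (SD, n = 5) in WD, 1.38 ± 1.48 (n = 4) in the batch 1 controls and 1.18 ± 0.56 (n = 5) in the batch 2 controls. The difference between WD and the batch 1 controls was 1.94, and it was 1.67 without controls 1 and 4. Summed ligand levels ran from 37.0 to 95.1 CPM in WD and from 40.2 to 76.6 CPM in the controls, so the separation lay in the receptor.

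**Figure D3:**
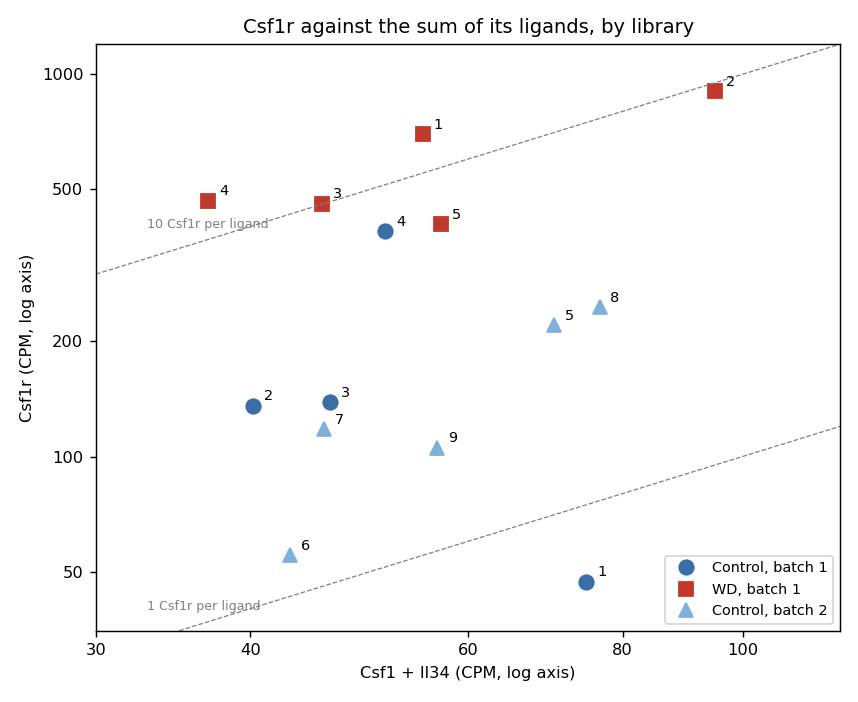
Csf1r on the vertical axis against Csf1 plus Il34 on the horizontal axis, both in CPM on log axes, with 1 point per library and dashed lines at ratios of 1 and 10. The WD libraries and control 4 lie at ratios of 7.10 to 12.6, and the other 8 controls at 0.630 to 3.38.

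The summed level of macrophage markers moved with Csf1r, Il7r and Csf2ra. The 10 markers Adgre1, Cd68, Mrc1, Cd163, Lyz2, Fcgr1, Mertk, C1qa, Itgax and Trem2 summed to 1168 to 1674 CPM in the WD libraries. The sums were 223, 770, 456 and 1175 CPM in batch 1 controls 1 to 4, and 302 to 534 CPM in the batch 2 controls. Control 4, the control with the most Csf1r, Il7r and Csf2ra, was also the one with the highest marker sum, just above WD 5. Its Trem2, a lipid-sensing receptor of fat-associated macrophages, was 138 CPM against 78.5 to 167 in WD and at most 8.26 in the other controls. Of the markers, 9 passed the filter in each comparison, and 0 were called against the batch 1 controls, 3 higher against all controls and 8 higher against the batch 2 controls. Over all genes tested the called shares were 0%, 0.530% and 6.40%, and in the last comparison diet and batch cannot be told apart. Against all controls, the fit with batch as a term called 1 of 12653 genes. Cd163, a scavenger receptor of resident macrophages, had values of the other sign, with log2 fold changes of -0.51 ± 0.43 (SE) against the batch 1 controls and -0.72 ± 0.25 against the batch 2 controls, and was not called.

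As a percentage of the macrophage marker sum, a measure chosen after the values were seen, Csf1r was 27.9% to 56.8% in WD, 17.6% to 33.1% in the batch 1 controls and 15.9% to 51.2% in the batch 2 controls. Those ranges overlapped. Csf2ra was 6.11% to 29.5%, 9.24% to 36.5% and 11.6% to 27.7% in the same order, and its groups overlapped widely. Il7r was 3.45% to 7.16% in WD and 0.751% to 3.10% in the batch 2 controls, which did not overlap. In the batch 1 controls Il7r was 3.54%, 1.16%, 2.10% and 7.20%, the last being control 4. Csf1 lay at 0.615% to 1.34% in WD and at 2.86% to 7.14% in the batch 2 controls. In the batch 1 controls it was 6.59%, 1.34%, 5.45% and 2.38%, so control 2 was level with the highest WD library. Il34 (1.59% to 4.73% against 5.27% to 13.3%) and Csf2rb (0.591% to 1.74% against 2.74% to 3.95%) also lay below the batch 2 controls. The marker sum itself was higher in WD, so a gene of unchanged level falls on this measure. The share of all genes without overlap on it was not calculated. The part of the macrophage markers in the differences of Csf1r, Csf2ra and Il7r was not tested.

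**Figure D4:**
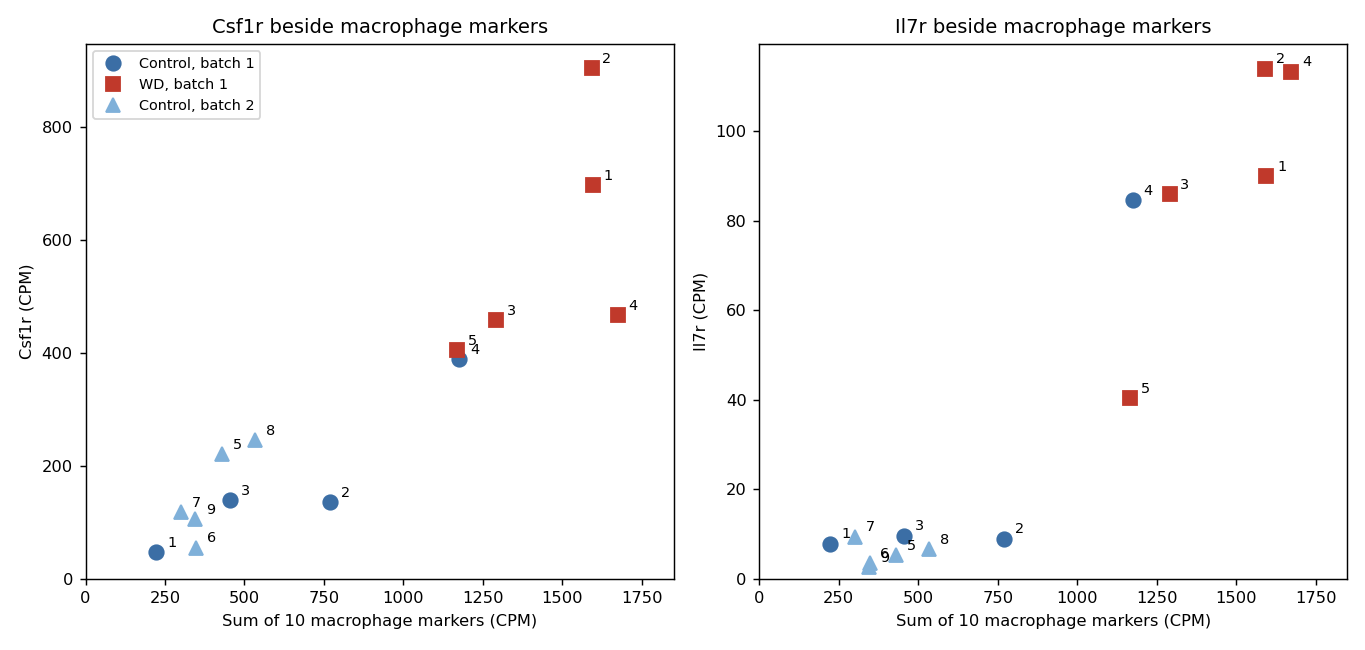
Csf1r (left) and Il7r (right) in CPM on the vertical axes against the sum of 10 macrophage markers in CPM on the horizontal axis, 1 point per library. Control 4 lies beside WD 5 for Csf1r and above it for Il7r, and the other 8 controls lie at 9.59 CPM or less for Il7r.

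Markers of T cells, B cells and NK cells were set beside Il7r and Il2rg, which lymphocytes also express. The T cell markers Cd3d, Cd3e, Cd3g, Cd4, Cd8a and Cd8b1 summed to 0 to 24.4 CPM in WD, 0 to 7.34 in the batch 1 controls and 0.191 to 5.09 in the batch 2 controls. All 6 were at 0 in WD 4, WD 5 and control 4, where Il7r measured 113, 40.3 and 84.6 CPM. Control 4 and WD 4 also had the fewest genes with a count, 7999 and 10903, against 12461 in WD 5. The endothelial genes Pecam1 and Cdh5 were likewise at 0 in control 4, so zeros of low genes there do not show absence. The B cell genes Cd79a, Cd79b and Ms4a1 were not all at 0 in 2 of these libraries, with 71, 0 and 42 counts in WD 4 and 0, 68 and 12 counts in WD 5, whereas control 4 held none. Ms4a1, the B cell surface protein CD20, had 12 to 593 counts in WD, the most in WD 3, 0 to 17 in the batch 1 controls and 0 to 33 in the batch 2 controls. Cd79a and Cd79b, the signalling chains of the B cell receptor, had 0 to 149 and 0 to 398 counts in WD, and at most 14 and 54 in any control. The part of lymphocytes in the level of Il7r and Il2rg was not tested. The NK cell and ILC markers summed to 86.0 to 116 CPM in WD, 115 to 402 in the batch 1 controls and 97.4 to 185 in the batch 2 controls, and most of this was Rora, except in control 1, where it was Klrb1c. The defining marker Ncr1 was at 0 in 13 of the 14 libraries. Few of these markers passed the low-count filter. Of the 6 T cell markers, 1 was tested against the batch 1 controls, 1 against all controls and 0 against the batch 2 controls. Of the 4 NK cell and ILC markers, 2 were tested in each of these comparisons. Cd79a and Ms4a1 were tested against the batch 1 controls and against all controls, and Ms4a1 alone against the batch 2 controls. None of those tested was called, and for the others the fits give no answer.

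Other cell types were described in the same way. The dendritic cell markers summed to 1.58 to 14.9 CPM in WD, 0 to 5.72 in the batch 1 controls and 3.95 to 8.58 in the batch 2 controls. The mast cell markers summed to 10.3 to 88.0, 0 to 24.8 and 7.09 to 28.8 CPM, and the 2 neutrophil markers measured, S100a8 and S100a9, to 54.0 to 156, 125 to 286 and 36.6 to 122 CPM. The adipose progenitor markers summed to 1498 to 3431, 962 to 2598 and 969 to 2299 CPM, the mesothelial markers to 13.2 to 121, 0.0726 to 108 and 35.8 to 95.3 CPM, and the endothelial markers to 28.1 to 119, 20.1 to 248 and 46.8 to 115 CPM. Of 5 adipocyte markers, 3 were called lower in WD against the batch 2 controls and Lep, the hormone leptin, higher. Of all genes tested there, 6.40% were called in either direction. No tested marker of the dendritic, mast cell, neutrophil, progenitor, mesothelial, endothelial and epididymis lists was called in any comparison. Not all passed the low-count filter. Of the 10 epididymis markers, 2, 3 and 1 were tested against the batch 1, all and batch 2 controls, and of the 4 dendritic cell markers 2, 3 and 3.

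Among the other genes of the colony-stimulating factor family, Csf2, Csf3, Il3 and Il5 had no count in any library, which at this depth allows at most 0.219 to 0.292 CPM in each. No ligand of the GM-CSF receptor was thus detected beside Csf2ra. In this list of 17 genes, 9 were tested against the batch 1 controls with 0 called, 10 against all controls with Csf1r called, and 9 against the batch 2 controls with Csf1r and Csf2ra called. The shares called over all genes tested were 0%, 0.530% and 6.40%. Csf2rb2 had a log2 fold change of 1.82 ± 0.87 (SE) against the batch 2 controls and 1.21 ± 1.60 against the batch 1 controls. Il3ra, the alpha chain for IL-3, had 1.89 ± 1.01 and 1.46 ± 1.60. Neither was called.

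The 16 genes of the common gamma chain and TSLP list gave 0 calls against the batch 1 controls and 0 against all controls, with 8 and 11 genes tested. Against the batch 2 controls 2 of 11 were called, Il7r and Crlf2, both higher, beside 6.40% of all genes tested. Crlf2, the chain that completes the TSLP receptor with IL7R, measured 62.7, 96.7, 76.7, 94.3 and 57.3 CPM in WD and 66.7, 37.1, 38.4 and 26.6 CPM in the batch 1 controls. In the batch 2 controls it measured 15.5 to 26.4 CPM, below every WD library, a pattern found in 4.99% of the genes tested. Its log2 fold change was 1.75 ± 0.25 (SE) against the batch 2 controls and 0.87 ± 0.36 against the batch 1 controls, and control 1, not control 4, was its highest control. Tslp itself had 0 to 158 counts per library, with a log2 fold change of 0.38 ± 1.69 against the batch 1 controls. Il2, Il4, Il9 and Il9r had no count in any library. Il15 and Il2rb, a ligand and a receptor chain that act with IL2RG, had at most 127 and 96 counts in any library and were not called. Il4ra had no count in control 4 and a log2 fold change of 0.07 ± 0.39 against the batch 2 controls.

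Downstream of these receptors, the JAK-STAT list of 15 genes gave 14 tested and 0 called against the batch 1 controls and against all controls. With the batch 2 controls 1 of 14 was called, beside 6.40% of all genes tested. It was Cish, a STAT5-induced inhibitor of cytokine signalling, which was lower in WD (log2 fold change -3.81 ± 0.89). Jak1, the kinase bound to IL7R, had a log2 fold change of 0.28 ± 0.18 against the batch 2 controls and 0.41 ± 0.25 against the batch 1 controls. Jak3, which pairs with IL2RG, was at 1.27 ± 0.83 and 2.13 ± 1.43. Stat5a was at -0.99 ± 0.83 and -0.02 ± 1.65, and Stat5b at -0.04 ± 0.40 and -0.72 ± 0.68, in the same order.

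The 12 genes of the list around CSF1R, which holds regulators and proximal signalling proteins, were all tested. Of these, 0 were called against the batch 1 controls, 2 against all controls and 6 against the batch 2 controls, all higher in WD. Among all genes tested, 0%, 0.530% and 6.40% were called in the same order. In each of these comparisons 11 of the 12 had a positive log2 fold change, whether or not they were called. The pair called against all controls was Tyrobp, an adaptor of myeloid receptors, at 2.13 ± 0.34 (SE), and Spi1, at 2.02 ± 0.44. The fit with batch as a term called 1 of 12653 genes, so these calls cannot both stand in it. Tyrobp measured 131 to 207 CPM in WD, 15.8, 36.2, 32.8 and 93.8 CPM in the batch 1 controls and 17.2 to 48.9 CPM in the batch 2 controls, so that every WD library was above every control. Spi1 measured 52.3 to 109 CPM in WD and 3.67 to 38.8 CPM over the 9 controls, without overlap. Of all genes tested, 1.13% lay above every control in every WD library. Against the batch 2 controls the further calls were the inhibitory phosphatases Inpp5d (2.49 ± 0.68) and Ptpn6 (1.91 ± 0.48), the exchange factor Vav1 (2.81 ± 0.77) and the inhibitory receptor Sirpa (1.90 ± 0.47). Sirpa was not higher in every WD library, with 16.8 CPM in WD 2 against 23.2 to 46.6 CPM in these controls. The other WD libraries held 107 to 249 CPM.

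Genes with the most similar pattern were ranked by Pearson's r of log2(CPM + 1) over the 14 libraries among genes with at least 1 CPM in 5 or more libraries. These points share library, depth and diet. For Csf1r they were Lat2 (r = 0.962), Taok3 (0.960) and Tyrobp (0.956), and for Il7r they were Mki67 (0.982), Ctss (0.963) and Tph2 (0.957). After the mean of each of the 3 groups was taken away, Taok3 (0.923), Lat2 (0.908) and Tyrobp (0.901) were still the nearest to Csf1r. For Il7r they were then Atp6v1a (0.927), Myo1f (0.926) and Mki67 (0.926). Csf1r and Il7r had r = 0.857 with each other, and 0.704 after the group means were taken away. Control 4, the highest control for both genes, weighs on these values, and no r was calculated without it.

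The ligands had other neighbours. Csf1 was most like Raver2 (r = 0.936) and Glcci1 (0.889), and its r with Csf1r was 0.02. Il34 was most like Cyp4f16 (0.866) and Pdrg1 (0.837), with r = 0.203 for Csf1r. For Il7 the nearest was Fam180a (0.869), and r with Il7r was -0.193, both over libraries where Il7 was mostly at or near 0 counts. Csf2ra was nearest to Myh15 (0.920), with r = 0.744 for Il7r and 0.596 for Csf1r, which were 0.358 and 0.126 after the group means were taken away. Csf2rb was nearest to Cxcl9 (0.927), with r = -0.03 for Csf2ra. Il2rg was nearest to Bdnf (0.936), with r = 0.525 for Il7r, and 0.217 after the group means were taken away.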

How the data were processed

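The authors prepared QuantSeq 3′-mRNA libraries, sequenced single-end reads of 75 bases, used Bowtie2 for alignment and took gene counts, with reads of multiple alignments included, from Bedtools. The submitters' notes name mm10. The deposited counts are raw. The authors also deposited log2 CPM values, TMM-normalized with edgeR and with 1 added before the logarithm, which were used only as a check, and the CPM here lay within 0.051 of them on the log2 scale. Because multiple alignments were counted, near-identical or overlapping genes can share reads.

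Groups came from the labels. Counts were tested with edgeR 4.0.16 (quasi-likelihood test, TMM factors, edgeR's filter on low counts, no covariates, Benjamini-Hochberg adjustment over all genes tested, FDR under 0.05) in R 4.3.3, with DESeq2 1.42.0 as an alternative. The steps were tested on simulated data. Levels, ratios and correlations were calculated in Python 3.11.15 (numpy 2.4.6, pandas 2.3.3), and matplotlib 3.10.9 drew the plots. No receptor or ligand was deleted or added in any mouse, so no targeted gene checks the labels. Mice of different groups are different animals.

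The 8 members, the pathway and marker lists and the tests were chosen with earlier results of these data known. Named genes were the members, the genes called in a pathway list (at most 6 per list and comparison), 14 direct partners and, for likeness, the nearest of the 5 genes with the highest r. Alternatives were other scaling factors, library totals, no filter, DESeq2, each library left out, the replicate number as a block and a batch term. Of 23282 genes, 5794 had no count. One marker gene of the lists is not reported here. Floors from depth cover counting error only, whereas the intervals of the fold changes come from the edgeR fits and include the spread between libraries.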

Additional observations from a re-analysis of the deposited data

Results flagged for a closer look

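Of the 24 combinations of gene and group, 5 held a library far from the others of its group by Dixon's criterion at the 95% level, whereas chance alone flags about 1 in 20, or 1.2 here. Values are log2(CPM + 1). Il7r was 6.42 in control 4 of batch 1 against 3.15 to 3.40 in the other 3, and 5.37 in WD 5 against 6.44 to 6.84 in the other WD libraries. Csf1 was 4.69 in control 6 of batch 2 against 3.78 to 4.03 in the others. Il7 was 1.74 in control 3 of batch 1, where the other 3 were at 0, and Il2rg was 2.06 in the same library against 0 to 0.28 in the other 3. The flags of Il7 and Il2rg rest on values at or near 0, to which the chance rate need not apply.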

How the results depend on the processing

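Against the batch 1 controls, 0 members were called under the other scaling factors, library totals, no filter, DESeq2 and the replicate block, with 0 to 1 when 1 library was left out and 2 without controls 1 and 4. The replicate numbers belong to different animals and the deviations of same-numbered libraries correlated at 0.0355 to 0.0983, so the numbers were not taken as pairs, and with the block 433 genes had an unadjusted p under 0.05 against 628. Against all controls the count of 1 became 0 with library totals and with a batch term, 2 with DESeq2 (Csf1r and Il7r), 3 without controls 1 and 4, and 0 to 3 when 1 library was left out. Against the batch 2 controls it was 3 under every alternative run, and between the control batches 0. The cause of these moves was not tested beyond the libraries named. Over all genes, 0 of 12157 were called against the batch 1 controls. This became 238 of 13168 with DESeq2, 48 of 12901 without control 4 and 108 of 13576 without controls 1 and 4. The 67 of 12653 against all controls became 293 of 13888 with DESeq2, 1 of 12653 with a batch term and 619 of 12428 without controls 1 and 4. With 1 library left out it was 28 of 12935 to 289 of 12605. The 773 of 12070 against the batch 2 controls became 1279 of 13765 with DESeq2. Between the control batches, 0 of 12106 became 226 of 12600 with DESeq2 and 28 of 13367 without controls 1 and 4. It was 0 to 2 genes there with 1 library left out. The difference in Csf1r per ligand between WD and the batch 1 controls was 1.26 to 2.44 on the log2 scale when 1 library was left out, 1.81 to 2.26 against all controls and 1.94 to 2.27 against the batch 2 controls. Across the alternatives run the sign turned only for values that were not called, and ranges here are those with 1 library left out. Against all controls, Il34 ran from -0.18 (without WD 2) to 0.24, and Il7 from -1.54 to 0.81 (0.09, 0.14 and 0.14 without WD 2, 3 and 4, 0.81 without control 5), with 1.18 for Il7 with a batch term. Against the batch 2 controls, Il34 ran from -0.33 to 0.14 (0.0046, 0.09 and 0.10 without WD 1, 3 and 4, 0.11 and 0.14 without controls 5 and 8), Csf1 from -0.14 to 0.17 (0.07 without WD 4, 0.17 without control 6) and Il7 from -2.12 to 0.51 (without control 5). Between the control batches, Csf1r ran from -0.58 to 0.48 (without control 4), and without controls 1 and 4 it was 0.12, Csf2ra 0.053 and Csf2rb -0.18. Counts reached 0 in some libraries for Il7 and Il2rg, and 1 in control 1 for Csf2rb. The fold changes of these genes rest partly on such values.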
